A study of Mus musculus with 48 samples.

Results

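The colon of 4 control and 4 Bmal1 IEC-/- mice killed at circadian time 17 (CT17, in the subjective night) was compared over all genes. These 8 mice, chosen by their labels for genotype and circadian time, are part of a series of 48, in which 4 mice of each genotype were killed at each of 6 circadian times 4 h apart. Bmal1 IEC-/- mice were male Bmal1 fl/fl x Villin CRE/wt animals, in which Cre driven by the Villin promoter deletes *Bmal1* in intestinal epithelial cells, and controls were their Bmal1 fl/fl x Villin wt/wt littermates, referred to as Bmal1 flox/flox. All were on a C57BL/6J background, carried the floxed alleles, were single-housed with a running wheel and chow at all times, and were killed at 18 to 20 weeks of age on day 2 of constant darkness. RNA came from colonic tissue, in which epithelium lies beside muscle, connective tissue, vessels, nerves and immune cells that the deletion does not reach. A lower count of an epithelial gene in such tissue cannot tell fewer cells of a type from less RNA per cell.

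In the clock, BMAL1 pairs with CLOCK or NPAS2 and switches on genes through a DNA element called the E-box, among them the *Per* and *Cry* genes, the Rev-erb genes *Nr1d1* and *Nr1d2*, and the transcription factors *Dbp* and *Tef*. PER and CRY proteins block this activation, REV-ERB proteins and their competitors, the ROR proteins, set the level of *Arntl* (the symbol of *Bmal1*), *Npas2*, *Cry1* and *Nfil3* through another element, and DBP, TEF and HLF act through the D-box, at which NFIL3 represses. In the gut such oscillators exist in the epithelium and beyond it, and epithelial genes for uptake, ion transport, detoxification and mucosal defence are known to vary over the day.

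Several of the results below concern genes that are known to be controlled through such elements. Sequences upstream of some of the clock genes that carry them are therefore shown. They hold the 250 bases before the annotated start (RefSeq, GRCm38.p6), written 5′ to 3′ on the gene's strand. Capitals mark the E-box CACGTG, the D-box TTATGTAA or the core AGGTCA of Rev-erb and ROR elements, each searched on both strands.
Per3, chr4:151044666-151044915, - strand: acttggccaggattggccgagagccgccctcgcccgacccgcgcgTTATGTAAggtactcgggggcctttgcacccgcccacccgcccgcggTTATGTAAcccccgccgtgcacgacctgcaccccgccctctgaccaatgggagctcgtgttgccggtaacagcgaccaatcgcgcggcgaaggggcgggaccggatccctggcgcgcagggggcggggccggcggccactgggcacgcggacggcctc
Cry1, chr10:85185055-85185304, - strand: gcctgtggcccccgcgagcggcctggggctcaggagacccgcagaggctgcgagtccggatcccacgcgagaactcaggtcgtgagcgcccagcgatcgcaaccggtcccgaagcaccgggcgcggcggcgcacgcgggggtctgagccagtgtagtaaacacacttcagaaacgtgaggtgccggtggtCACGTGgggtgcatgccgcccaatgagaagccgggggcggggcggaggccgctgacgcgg
Ciart, chr3:95882229-95882478, - strand: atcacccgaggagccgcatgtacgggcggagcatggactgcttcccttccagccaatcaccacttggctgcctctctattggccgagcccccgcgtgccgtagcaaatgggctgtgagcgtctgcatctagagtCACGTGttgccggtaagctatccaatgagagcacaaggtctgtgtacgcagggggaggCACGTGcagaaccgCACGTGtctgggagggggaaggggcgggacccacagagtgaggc
Tef, chr15:81802423-81802672, + strand: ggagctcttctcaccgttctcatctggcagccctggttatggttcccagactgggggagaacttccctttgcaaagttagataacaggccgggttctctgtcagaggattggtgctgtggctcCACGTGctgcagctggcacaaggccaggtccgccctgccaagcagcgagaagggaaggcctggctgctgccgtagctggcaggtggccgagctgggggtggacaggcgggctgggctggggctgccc
Nr1d2, chr14:18239107-18239356, - strand: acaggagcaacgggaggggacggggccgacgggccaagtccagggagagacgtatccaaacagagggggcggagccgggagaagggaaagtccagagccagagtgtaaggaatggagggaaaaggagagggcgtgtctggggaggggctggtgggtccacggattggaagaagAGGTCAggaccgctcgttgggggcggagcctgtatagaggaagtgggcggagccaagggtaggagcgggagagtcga
*Per3* held 2 D-boxes, at positions -205 and -158 from the start, *Ciart* held 3 E-boxes, at -116, -58 and -44, and *Cry1* and *Tef* held an E-box at -60 and -127. *Nr1d2* held AGGTCA at -77 and no E-box within these bases. Not shown are *Per1* and *Bhlhe41*, with an E-box at -166 and -153, and *Clock*, *Nampt* and *Nfil3*, with AGGTCA, which *Per1* held too. None of the genes not shown was called at CT17 by the thresholds given below, whereas all of those shown but *Ciart* were. Of the 24 clock genes listed below, 20 had a promoter in the table, of which 5 held an E-box, 1 a D-box and 5 AGGTCA. Counted by gene in the same way, 6.86% of all 27025 genes in the table held the E-box, 0.977% the D-box and 15.8% AGGTCA. Among the 11107 of them that were tested the shares were 9.55%, 0.594% and 13.3%. A match is a description of the letters and not evidence of binding.

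At CT17, gene counts summed to 3565094 to 4439845 per mouse, and their means were 3968350 for the control and 3990800 for the Bmal1 IEC-/- group (two-sided exact permutation test, p = 0.914, the smallest p that 4 against 4 allows being 0.0286). Mice of a group differed by more than counting error, with a chi-square per gene of 3.44 to 7.62 over pairs of replicates. Epithelial markers summed to 35070 to 37400 normalised counts (counts divided by size factors) in control and 38130 to 40420 in Bmal1 IEC-/- mice, with none of the 10 markers at 0. Every Bmal1 IEC-/- sum was thus above every control sum. The members did not all go this way, with log2 differences (Bmal1 IEC-/- minus control) above 0 in 7 and below 0 in 3 (median 0.11). *Epcam* was lower in every Bmal1 IEC-/- mouse, and 0 of the 10 passed the adjusted p in edgeR. Of 19 marker lists, adipocyte markers had the widest relative range, 97.0 to 505 in control and 115 to 1008 in Bmal1 IEC-/- mice, where replicate SV481 held the highest value. The neutrophil markers *Ly6g* and *Cxcr2* were at 0 in all 8 mice, the other 4 of that list summed to at most 9.93, and summed markers of T cells, fibroblasts and smooth muscle overlapped between the genotypes. Endothelial markers summed to 629.8 to 746 in control and 523 to 654 in Bmal1 IEC-/- mice, and all 6 had log2 differences below 0 (median -0.32, 0 past the adjusted p in edgeR). The groups did not overlap for 2 of the 6, against 4.73% of all genes tested. Other marker lists also leaned in a single direction. Tuft cell markers were above 0 in 5 of 5 tested, and below 0 were 8 of 9 of enteric neurons and glia, 7 of 8 of macrophages and dendritic cells and 7 of 8 of smooth muscle. The part of these marker levels in the results below was not tested. No label gives a batch, so the spread between mice is all that p-values measure here.

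*Arntl*, the deleted gene (ENSMUSG00000055116.8, chromosome 7, 113207465 to 113314126, + strand), had 89.7, 113, 72.4 and 122.5 normalised counts in the control mice and 122, 132, 119.9 and 106 in the Bmal1 IEC-/- mice. Gene coordinates here and below are those of GRCm38. The genotypes overlapped, with a log2 difference (Bmal1 IEC-/- minus control, here and below) of 0.28 (SE 0.16, edgeR adjusted p = 0.736). Adjusted p-values come from the quasi-likelihood test of edgeR and were adjusted by the Benjamini-Hochberg method across the 15073 genes tested. The count takes in every exon of the gene, deleted or not, and every cell type of the colon, so it does not check the genotype labels. CT17 lies where the control level of *Arntl* climbs through that of the Bmal1 IEC-/- mice. Its log2 difference was 2.07 at CT9 and 1.93 at CT13 but -0.86 at CT21, each past an adjusted p of 0.05.

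The other activators of the clock differed mainly in *Npas2*, which encodes the partner that can stand in for CLOCK. *Npas2* (ENSMUSG00000026077.15, chromosome 1, 39193731 to 39363236, + strand) had 83.3, 81.9, 70.6 and 56.3 normalised counts in the control mice and 250.2, 276.5, 291 and 244 in the Bmal1 IEC-/- mice. Every Bmal1 IEC-/- mouse was above every control mouse, and the mean rose from 73.03 ± 12.5 to 265 ± 22.2 (mean ± SD, n = 4 each), a log2 difference of 1.85 (SE 0.15, edgeR adjusted p = 7.42e-12). *Clock* itself had 472, 434, 283 and 496.5 normalised counts in the control mice and 413, 489, 347 and 523 in the Bmal1 IEC-/- mice, a log2 difference of 0.071 (edgeR adjusted p = 0.999). *Rora*, the gene of a ROR protein, had a log2 difference of -0.063 (edgeR adjusted p = 0.997), and *Rorb* was not tested because it had 1 count in each control mouse and 0 in each Bmal1 IEC-/- mouse. Per kilobase of annotated exon, the control level was 15.2 normalised counts for *Npas2* and 13.2 for *Arntl*.

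Among the repressors of the clock, *Nr1d2* and *Per3* fell and *Cry1* rose. *Nr1d2* (ENSMUSG00000021775.11, chromosome 14, 18204054 to 18239127, - strand), which encodes REV-ERBβ, had 341, 301, 305 and 303 normalised counts in the control mice and 39.96, 119, 87.3 and 67.2 in the Bmal1 IEC-/- mice. Its mean fell from 313 ± 19.2 to 78.4 ± 33.4 (mean ± SD, n = 4 each), a log2 difference of -1.999 (SE 0.18, edgeR adjusted p = 8.50e-11). *Per3* (ENSMUSG00000028957.12, chromosome 4, 151003652 to 151044665, - strand), whose upstream sequence held both D-boxes, had 239.8, 299, 244 and 257 normalised counts in the control mice and 97.05, 122, 128 and 106 in the Bmal1 IEC-/- mice. Its highest Bmal1 IEC-/- mouse was below the lowest control mouse, and the log2 difference was -1.20 (SE 0.17, edgeR adjusted p = 7.31e-06). *Cry1* (ENSMUSG00000020038.10, chromosome 10, 85131700 to 85185064, - strand), whose protein blocks activation by BMAL1 and CLOCK, had 183, 163, 195 and 208.5 normalised counts in the control mice and 299.7, 265, 299 and 287 in the Bmal1 IEC-/- mice. *Cry1*, with an E-box upstream, rose in all 4 Bmal1 IEC-/- mice against every control mouse, with a log2 difference of 0.61 (SE 0.14, edgeR adjusted p = 0.0105). Without control replicate SV417 its log2 difference was 0.56 (edgeR adjusted p = 0.0598).

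*Nr1d1*, which encodes REV-ERBα, had 44.9, 41.5, 54.1 and 32 normalised counts in the control mice and 17.1, 17.6, 21.4 and 16.04 in the Bmal1 IEC-/- mice. All Bmal1 IEC-/- mice were below all control mice, yet the log2 difference of -1.27 (SE 0.36, edgeR adjusted p = 0.0749) did not pass. *Ciart*, a repressor with 3 E-boxes upstream, had 17.4, 19.1, 13.9 and 14.3 normalised counts in the control mice and 3.81, 10.8, 7.43 and 5.01 in the Bmal1 IEC-/- mice and a log2 difference of -1.25 (SE 0.36, edgeR adjusted p = 0.0885). *Nr1d1* passed in DESeq2 (adjusted p = 0.0133) and *Ciart* passed without Bmal1 IEC-/- replicate SV416 (edgeR adjusted p = 0.0473). The period genes *Per1* and *Per2*, *Cry2* and the E-box repressors *Bhlhe40* and *Bhlhe41* overlapped between the genotypes, with log2 differences of -0.40, -0.18, 0.075, -0.27 and -0.26 that did not pass the test. Of these, *Per1* and *Bhlhe41* also held an E-box upstream. The direction of *Cry2* and *Bhlhe41* turned when single mice were left out.

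Of the factors that pass the rhythm on, *Tef* (a PAR bZIP factor with an upstream E-box) had 523, 488, 569 and 488 normalised counts in the control mice and 269, 312, 344 and 325 in the Bmal1 IEC-/- mice. It was lower in 4 of 4 Bmal1 IEC-/- mice and fell with a log2 difference of -0.73 (SE 0.12, edgeR adjusted p = 0.000173). *Dbp*, the classical D-box activator, had 41.2, 38.3, 43.6 and 30.9 normalised counts in the control mice and 9.51, 24.4, 26.02 and 21.1 in the Bmal1 IEC-/- mice. Its groups did not overlap, and the log2 difference of -0.93 (SE 0.30, edgeR adjusted p = 0.173) did not pass the test. *Nfil3*, the D-box repressor, had 79.6, 63.8, 71.5 and 45.2 normalised counts in the control mice and 106, 74.3, 85.5 and 107 in the Bmal1 IEC-/- mice and a log2 difference of 0.50 (SE 0.17, edgeR adjusted p = 0.184). The cell cycle kinase gene *Wee1* and the NAD synthesis gene *Nampt* passed the adjusted p but not a fold change of 1.5, at -0.47 (edgeR adjusted p = 0.0438) and -0.36 (edgeR adjusted p = 0.0209). *Wee1* no longer passed the adjusted p without any of 7 of the 8 mice (all but control replicate SV417, edgeR adjusted p = 0.053 to 0.259), nor did *Nampt* without Bmal1 IEC-/- replicates SV416 or SV437 or control replicate SV453 (edgeR adjusted p = 0.0773, 0.0779 and 0.167). Neither passed when the 8 CT17 mice were fitted alone (edgeR adjusted p = 0.227 and 0.103), and *Wee1* did not in DESeq2 (adjusted p = 0.0516) or with all 48 mice (edgeR adjusted p = 0.0563). *Hlf*, *Usp2* and *Noct* did not pass. Of the 23 clock genes tested, 2 were called higher and 3 lower, against 0.239% and 0.425% of all genes tested.

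**Figure D1:**
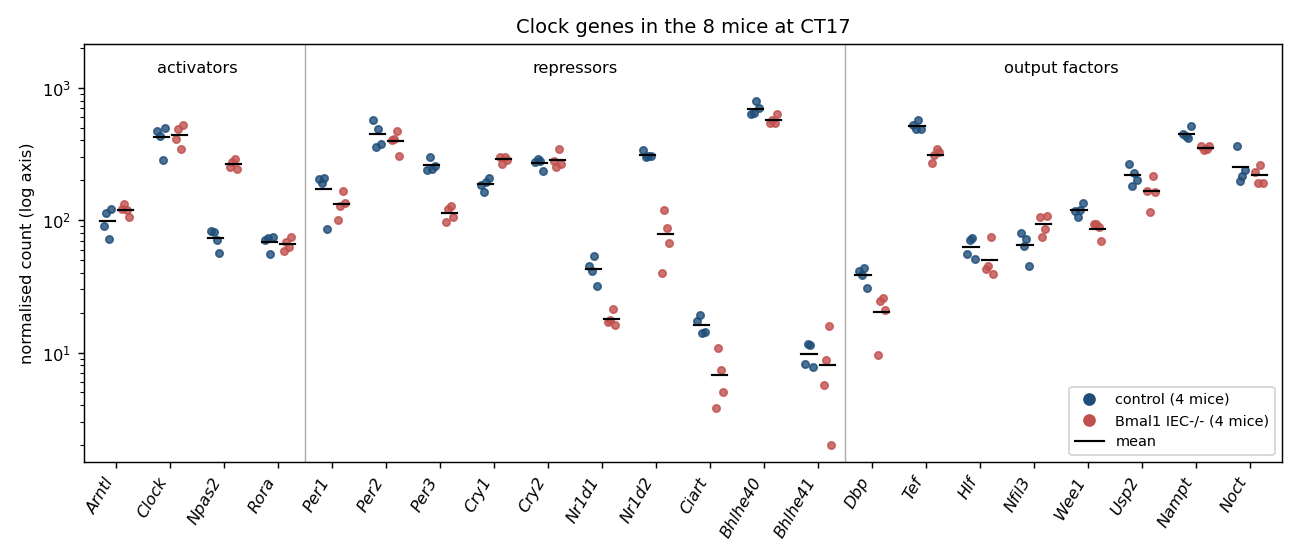
Normalised counts (log axis) of 22 clock genes in each of the 4 control and 4 Bmal1 IEC-/- mice at CT17, with a bar at the mean of each group. *Npas2* and *Cry1* lie higher, and *Per3*, *Nr1d2* and *Tef* lower, in all Bmal1 IEC-/- mice, while *Arntl* and *Clock* overlap.

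Over all genes, 100 of the 15073 tested (0.663%) had an adjusted p under 0.05 and a fold change over 1.5, the thresholds by which a gene is called here. In Bmal1 IEC-/- mice 36 genes (0.239%) were higher and 64 (0.425%) lower, and 159 (1.05%) passed the adjusted p alone. The 8 mice of CT17 by themselves gave 72 calls, 66 of them shared with the 100. The median log2 difference over all genes was 0.0028. The groups did not overlap for 713 genes (4.73%), and for 92 of the 100 genes called. Genes called lower included 10 with at least 1000 normalised counts in the higher group, and genes called higher included 0. Called genes had a median size of 1.399 on the log2 scale where higher and 1.10 where lower. In the promoter table, 25 of the genes called higher and 50 of those called lower were found. The E-box was held by 3 (12%) of the former and 4 (8%) of the latter, against 9.55% of 11107 genes tested with a promoter there. AGGTCA was held by 6 (24%) and 9 (18%), against 13.3%, and the D-box by 0 and by 3 (6%; *Per3*, *Ces1g* and *Apol7a*), against 0.594%.

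**Figure D2:**
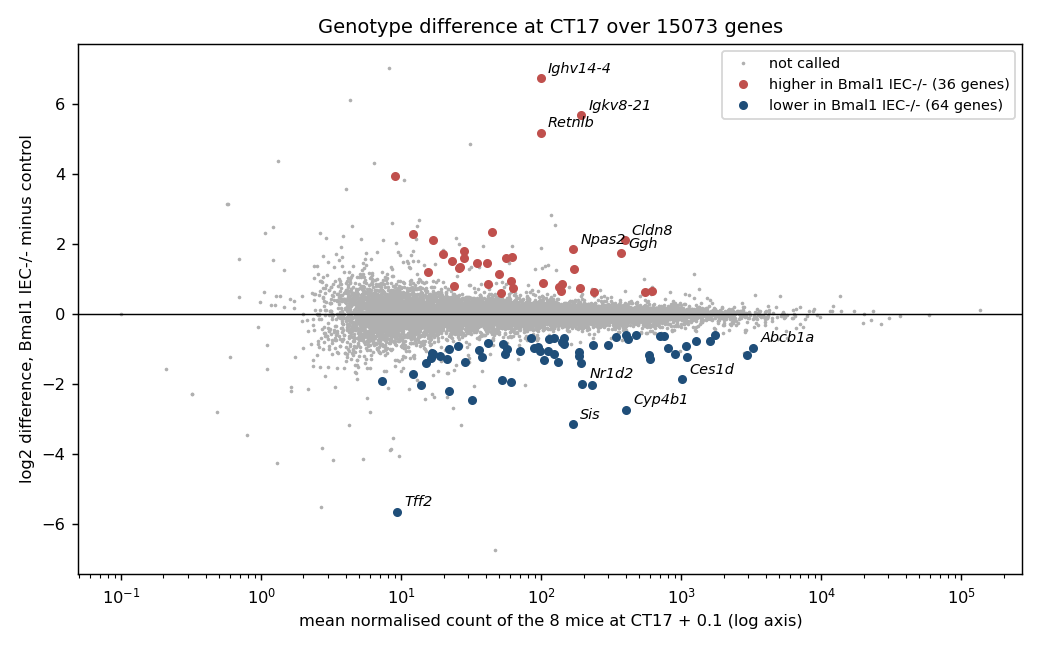
Log2 difference at CT17 (Bmal1 IEC-/- minus control) against the mean normalised count of the 8 mice (log axis, 0.1 added) for 15073 genes. The 36 genes called higher are in red and the 64 called lower in blue, and the points with the highest counts among called genes are lower in Bmal1 IEC-/- mice.

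The genes with the smallest adjusted p among those higher in Bmal1 IEC-/- mice were *Ggh* and *Cldn8*. *Ggh* (ENSMUSG00000073987.4, chromosome 4, 20042052 to 20066750, + strand), which encodes the folate-cleaving enzyme gamma-glutamyl hydrolase, had 198, 167, 150.0 and 176.5 normalised counts in the control mice and 484, 606, 551 and 652 in the Bmal1 IEC-/- mice. Its mean rose from 173 ± 19.9 to 573 ± 72.2 (mean ± SD, n = 4 each), a log2 difference of 1.73 (SE 0.12, edgeR adjusted p = 9.68e-14). *Cldn8* (ENSMUSG00000050520.4, chromosome 16, 88560828 to 88563183, - strand), a claudin of tight junctions, had 154, 153, 129 and 153 normalised counts in the control mice and 675.5, 536, 635 and 703 in the Bmal1 IEC-/- mice. The lowest Bmal1 IEC-/- mouse was more than 3 times the highest control mouse, and the log2 difference was 2.11 (SE 0.16, edgeR adjusted p = 7.82e-13). The other 14 tight junction genes tested did not pass the test and lay between -0.17 and 0.21 on the log2 scale.

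*Glipr2*, a gene of the pathogenesis-related protein family, rose with a log2 difference of 1.28 (SE 0.13, edgeR adjusted p = 1.89e-09), and *Pex5l*, a relative of the peroxisomal import receptor, with one of 1.64 (SE 0.21, edgeR adjusted p = 7.99e-07). *Pex5l* had 34.8, 24.5, 34.9 and 25.4 normalised counts in the control mice and 103, 87.9, 101 and 85.2 in the Bmal1 IEC-/- mice. Neither gene overlapped between the genotypes. *Abcg2*, an efflux pump of the apical membrane, had 372, 486, 383 and 495 normalised counts in the control mice and 619, 582, 696 and 756 in the Bmal1 IEC-/- mice. It rose by less than those above, with a log2 difference of 0.61 (SE 0.10, edgeR adjusted p = 0.000154). *Grhl1*, an epithelial transcription factor, and *Agbl2*, a carboxypeptidase that acts on tubulin, rose at low levels, with log2 differences of 1.31 (SE 0.22, edgeR adjusted p = 0.000173) and 1.80 (SE 0.30, edgeR adjusted p = 0.000173).

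*Slc34a2*, a phosphate transporter, had 7.32, 25.5, 7.85 and 18.8 normalised counts in the control mice and 30.4, 159, 43.7 and 60.2 in the Bmal1 IEC-/- mice and rose with a log2 difference of 2.34 (SE 0.54, edgeR adjusted p = 0.012). It lost the call without control replicates SV398 or SV438 or Bmal1 IEC-/- replicate SV416 (edgeR adjusted p = 0.071, 0.0871 and 0.246), and without SV416 its log2 difference was 1.62. It also lost the call with the 8 CT17 mice fitted alone (edgeR adjusted p = 0.0528) and in limma-voom (adjusted p = 0.127).

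*9030625G05Rik*, a gene with no assigned name, had 0.915, 1.06, 1.74 and 0 normalised counts in the control mice and 26.6, 6.84, 13.01 and 21.1 in the Bmal1 IEC-/- mice. It was below the floor of 3 counts per mouse in controls and rose with a log2 difference of 3.95 (SE 0.53, edgeR adjusted p = 2.78e-06), which at so few control counts depends on the prior count of the fit. *Gm43534* had 4.58, 7.45, 0.872 and 3.31 normalised counts in the control mice and 18.1, 15.6, 20.4 and 25.1 in the Bmal1 IEC-/- mice and a log2 difference of 2.29 (SE 0.38, edgeR adjusted p = 0.000173). The immunoglobulin segments *Ighv14-4* and *Igkv8-21* were called higher through replicate SV481 alone. *Ighv14-4* had 3.66, 0, 2.62 and 0 normalised counts in the control mice and 0, 0.977, 1.86 and 779 in the Bmal1 IEC-/- mice, and *Igkv8-21* had 3.66, 18.1, 2.62 and 5.52 normalised counts in the control mice and 4.76, 1.95, 4.65 and 1491 in the Bmal1 IEC-/- mice. Without replicate SV481 their log2 differences were -0.76 and -0.90 (edgeR adjusted p = 0.999 and 0.995). The calls were also lost without control replicates SV417, SV438 or SV453 (*Ighv14-4*, edgeR adjusted p = 0.0621 to 0.0657) and without any of the control mice (*Igkv8-21*, edgeR adjusted p = 0.0633 to 0.128), and for both in limma-voom (adjusted p = 0.939 and 0.971). Of 171 immunoglobulin segments tested, these 2 were called, and summed segments ran from 9220 to 12040 normalised counts in control and from 6357 to 17660 in Bmal1 IEC-/- mice.

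**Figure D3:**
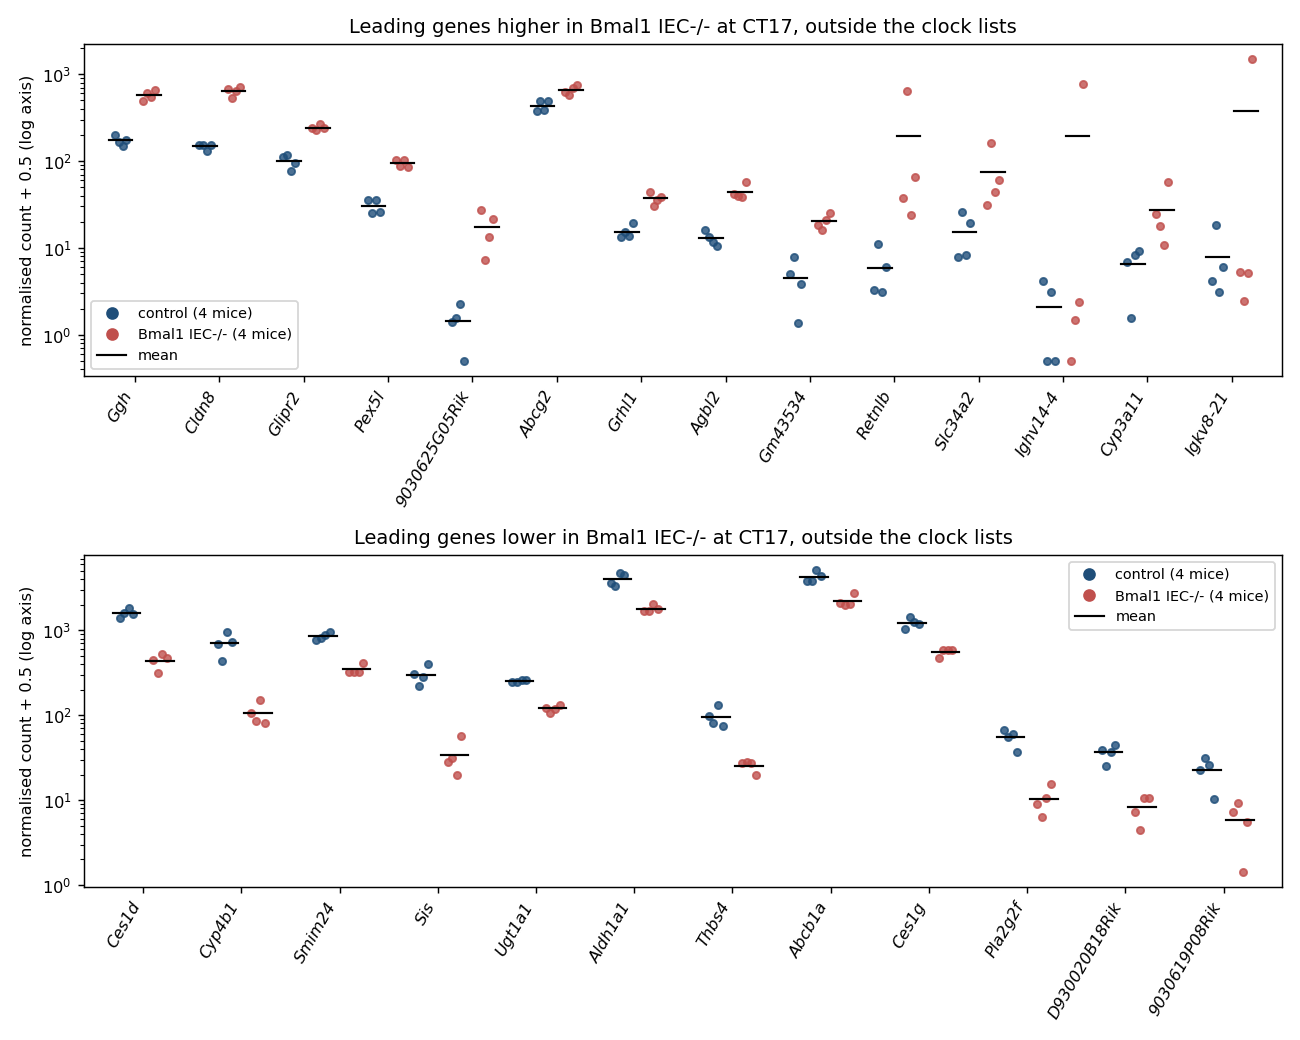
Normalised counts with 0.5 added (log axis) of the leading genes outside the clock lists in each mouse at CT17, higher in the upper panel and lower in the lower panel, with a bar at the mean of each group. *Ggh*, *Cldn8*, *Ces1d* and *Sis* separate the genotypes in every mouse, whereas *Ighv14-4* and *Igkv8-21* are high in replicate SV481 alone.

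Genes of xenobiotic metabolism and efflux made up the largest number of calls of any list besides the 25 genes taken from the study. This list was also the longest. Of 31 tested, 4 were called lower and 2 higher, against 0.425% and 0.239% of all genes tested. By share, clock repressors had more calls, with 2 of 10 lower and 1 higher. In the lower direction 6 of the 31 passed the adjusted p, and 25 lay below 0, with a median log2 difference of -0.33. Over all genes, 7660 of 15073 lay above 0. *Ces1d* (ENSMUSG00000056973.6, chromosome 8, 93166068 to 93197838, - strand), a carboxylesterase that hydrolyses drugs and lipids, had 1386, 1611, 1815 and 1551 normalised counts in the control mice and 444, 311, 521 and 475 in the Bmal1 IEC-/- mice. Its mean fell from 1591 ± 177 to 438 ± 90.5 (mean ± SD, n = 4 each), a log2 difference of -1.86 (SE 0.14, edgeR adjusted p = 4.96e-13), and no gene called lower had a smaller adjusted p. *Ces1g*, another member of the family and a holder of a D-box upstream, had 1035, 1451, 1256 and 1176 normalised counts in the control mice and 469, 590.2, 593 and 590.5 in the Bmal1 IEC-/- mice and fell with a log2 difference of -1.14 (SE 0.14, edgeR adjusted p = 3.55e-07). Carboxylesterase genes lie in a cluster of near copies, and reads that fit more than 1 copy make their counts uncertain.

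*Cyp4b1* (ENSMUSG00000028713.17, chromosome 4, 115624725 to 115647723, - strand), a cytochrome P450 that oxidises fatty acids and foreign compounds, had 697.5, 429.8, 958 and 734 normalised counts in the control mice and 105, 85.99, 149.6 and 80.2 in the Bmal1 IEC-/- mice. It fell with a log2 difference of -2.75 (SE 0.23, edgeR adjusted p = 7.42e-12), and the groups were far apart. *Abcb1a* (ENSMUSG00000040584.8, chromosome 5, 8660077 to 8748575, + strand), which encodes the efflux pump P-glycoprotein, had 3805, 3838, 5145 and 4374 normalised counts in the control mice and 2081, 1962, 2039 and 2743 in the Bmal1 IEC-/- mice. It fell from a high level, with a log2 difference of -0.96 (SE 0.12, edgeR adjusted p = 2.68e-07), whereas the efflux pump gene *Abcg2* rose. *Cyp2c65* and *Ces2c*, named after their values were seen, passed the adjusted p with log2 differences of -0.56 (edgeR adjusted p = 0.000311) and -0.47 (edgeR adjusted p = 0.00482), the latter not without Bmal1 IEC-/- replicate SV399 (edgeR adjusted p = 0.0537) or with the 8 CT17 mice fitted alone (edgeR adjusted p = 0.0551).

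*Cyp3a11*, the main drug-metabolising P450 of mouse liver and gut, went the other way. It had 6.41, 1.06, 7.85 and 8.83 normalised counts in the control mice and 23.8, 17.6, 10.2 and 57.1 in the Bmal1 IEC-/- mice, and the log2 difference was 2.12 (SE 0.50, edgeR adjusted p = 0.0168). The call was lost without control replicates SV398 or SV417 or Bmal1 IEC-/- replicate SV481 (edgeR adjusted p = 0.0512, 0.0958 and 0.284), and without SV481 the log2 difference was 1.47. It was also lost with the 8 CT17 mice fitted alone (edgeR adjusted p = 0.119) and in limma-voom (adjusted p = 0.143). Outside the list, the bilirubin-conjugating enzyme gene *Ugt1a1* had 243, 248, 262.5 and 259 normalised counts in the control mice and 123, 106.5, 119 and 131 in the Bmal1 IEC-/- mice and fell with a log2 difference of -1.08 (SE 0.11, edgeR adjusted p = 5.57e-09). *Ugt1a1* shares its last exons with neighbouring *Ugt1a* genes, so that its count is uncertain. *Aldh1a1* (ENSMUSG00000053279.8, chromosome 19, 20492715 to 20643465, + strand), which makes retinoic acid, had 3583, 3355, 4769 and 4506 normalised counts in the control mice and 1699, 1671, 2030 and 1770 in the Bmal1 IEC-/- mice and fell with a log2 difference of -1.18 (SE 0.12, edgeR adjusted p = 6.24e-09). The apical transporter gene *Abcc2* had a log2 difference of -0.97 (edgeR adjusted p = 0.41).

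*Smim24*, a small membrane protein gene, had 762.5, 813, 877 and 963 normalised counts in the control mice and 324, 326, 321.5 and 415 in the Bmal1 IEC-/- mice. It fell in all 4 Bmal1 IEC-/- mice, with a log2 difference of -1.30 (SE 0.11, edgeR adjusted p = 4.05e-11). The genes *D930020B18Rik* and *9030619P08Rik*, named for their size of change at low levels, fell with log2 differences of -2.21 (SE 0.32, edgeR adjusted p = 1.20e-05) and -2.04 (SE 0.42, edgeR adjusted p = 0.00359). *Pgbd5*, which derives from a transposase, fell with one of -1.28 (SE 0.26, edgeR adjusted p = 0.00304), a call lost with the 8 CT17 mice fitted alone (edgeR adjusted p = 0.0676).

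In salt and water transport, 3 of 22 genes tested were called lower, 5 passed the adjusted p in that direction and 0 in the other. Of the 22, 18 lay below 0, with a median of -0.26. Over all genes tested 0.425% were called lower, 1.05% passed the adjusted p in either direction, and 7660 of 15073 lay above 0. *Slc26a3* (ENSMUSG00000001225.12, chromosome 12, 31390871 to 31473917, + strand), the chloride-bicarbonate exchanger of the colonic surface, had 850.4, 675.5, 757 and 958 normalised counts in the control mice and 392, 327, 259 and 471 in the Bmal1 IEC-/- mice. Its log2 difference was -1.16 (SE 0.18, edgeR adjusted p = 3.12e-05). *Car4*, a membrane-bound carbonic anhydrase, had 1558, 1626, 1492 and 1759 normalised counts in the control mice and 836, 1004, 1007 and 920.4 in the Bmal1 IEC-/- mice and fell with a log2 difference of -0.77 (SE 0.10, edgeR adjusted p = 1.85e-06). *Slc13a1*, a sodium-sulfate cotransporter, had 191, 307, 282 and 342 normalised counts in the control mice and 78.02, 135, 80.8 and 129 in the Bmal1 IEC-/- mice and fell with one of -1.41 (SE 0.19, edgeR adjusted p = 2.51e-06).

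The cytosolic carbonic anhydrase gene *Car2* had 2944, 3273, 3414 and 3586 normalised counts in the control mice and 2343, 2515, 2300 and 2445 in the Bmal1 IEC-/- mice. Its decline was smaller than a fold change of 1.5 but separated the groups, with a log2 difference of -0.46 (SE 0.071, edgeR adjusted p = 3.86e-05). The sodium-proton exchanger gene *Slc9a2* passed the adjusted p at -0.29 (edgeR adjusted p = 0.0416), with overlapping groups, and lost it without Bmal1 IEC-/- replicates SV399, SV416 or SV437 or control replicates SV417 or SV438 (edgeR adjusted p = 0.132 to 0.281). *Slc9a2* also lost it with the 8 CT17 mice fitted alone (edgeR adjusted p = 0.429) and with all 48 mice (edgeR adjusted p = 0.132). The same held with scaling by library totals alone (edgeR adjusted p = 0.0616), with a filter of at least 10 counts in at least 4 mice (edgeR adjusted p = 0.0511) and with no filter beyond 1 count in any mouse (edgeR adjusted p = 0.279). The exchanger gene *Slc9a3*, the chloride channel gene *Cftr*, the cotransporter gene *Slc12a2* and the abundant carbonic anhydrase gene *Car1* had log2 differences of -0.086 (edgeR adjusted p = 0.999), 0.11 (edgeR adjusted p = 0.984), 0.074 (edgeR adjusted p = 0.986) and -0.059 (edgeR adjusted p = 0.987). The water channel gene *Aqp8* had means of 35.1 and 7.77 normalised counts and did not pass, with a log2 difference of -2.14 (edgeR adjusted p = 0.0944).

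For the brush border and nutrient uptake, 2 of 14 genes tested were called lower and 0 higher (0.425% and 0.239% over all genes), with a median of -0.11. *Sis* (ENSMUSG00000027790.14, chromosome 3, 72888557 to 72967863, - strand), which encodes sucrase-isomaltase, had 304, 218, 279.9 and 398 normalised counts in the control mice and 27.6, 31.3, 19.5 and 57.1 in the Bmal1 IEC-/- mice. The mean fell from 300.1 ± 74.8 to 33.9 ± 16.3 (mean ± SD, n = 4 each), a log2 difference of -3.15 (SE 0.31, edgeR adjusted p = 1.69e-09), among the largest of the genes called lower with at least 20 normalised counts. Summed small intestine markers ran from 68.6 to 140 normalised counts in control and from 74.3 to 130 in Bmal1 IEC-/- mice. Of that list *Apoa4* was at 0 in all mice, *Rbp2* was called lower at -0.83 (edgeR adjusted p = 0.014), and *Alpi* was at 0.30 (edgeR adjusted p = 0.935). The part of these markers in the difference of *Sis* was not tested. *Slc2a5*, the fructose transporter, had 26.5, 18.1, 21.8 and 24.3 normalised counts in the control mice and 10.5, 10.8, 6.50 and 10.03 in the Bmal1 IEC-/- mice and a log2 difference of -1.26 (SE 0.32, edgeR adjusted p = 0.0352). That call was lost when any of 7 of the 8 mice was left out (all but control replicate SV417, edgeR adjusted p = 0.0629 to 0.149) and in limma-voom (adjusted p = 0.0595). The glucose transporter gene *Slc5a1* and the disaccharidase gene *Mgam* did not pass, at -0.14 (edgeR adjusted p = 0.881) and -0.19 (edgeR adjusted p = 0.763).

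Among goblet and mucus effectors, 1 of 13 genes tested was called higher and 1 lower (0.239% and 0.425% over all genes), with a median of 0.0074. *Retnlb* (ENSMUSG00000022650.7, chromosome 16, 48816856 to 48818892, + strand), a secreted defence protein of goblet cells, had 2.75, 10.6, 2.62 and 5.52 normalised counts in the control mice and 37.1, 646, 23.2 and 65.2 in the Bmal1 IEC-/- mice. All Bmal1 IEC-/- mice were above all control mice, but replicate SV416 was far above the rest, and the log2 difference was 5.18 (SE 1.021, edgeR adjusted p = 0.00197). Without replicate SV416 it was 2.97 (edgeR adjusted p = 0.218), and the call was also lost with the 8 CT17 mice fitted alone (edgeR adjusted p = 0.0525) and in limma-voom (3.97, adjusted p = 0.464). The angiogenin gene *Ang4*, another secreted defence gene, was highest in the same mouse, with 16.5, 80.8, 6.98 and 14.3 normalised counts in the control mice and 37.1, 620.5, 70.6 and 85.2 in the Bmal1 IEC-/- mice and a log2 difference of 2.82 (SE 0.86, edgeR adjusted p = 0.123).

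*Tff2*, a trefoil peptide of mucus, had 6, 5, 44 and 21 raw counts in the control mice, and 0, 0, 0 and 1 in the Bmal1 IEC-/- mice. It was called lower (edgeR adjusted p = 0.000248), and the ratio of normalised counts, control over Bmal1 IEC-/-, was 77.2 with an exact 95% counting interval of 13.4 to 3090, which covers counting error only. The control mice themselves spanned 5.32 to 38.4 normalised counts. *Muc2*, the main mucin, and *Fcgbp*, which cross-links mucus, did not pass, with log2 differences of -0.046 (edgeR adjusted p = 0.999) and 0.13 (edgeR adjusted p = 0.962). Summed goblet cell markers ran from 73690 to 110700 normalised counts in control and from 69900 to 107300 in Bmal1 IEC-/- mice.

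In antimicrobial and mucosal defence, 1 of 13 genes tested was called lower and 0 higher (0.425% and 0.239% over all genes). Of the 13, 11 lay below 0, with a median of -0.45, whereas 7660 of all 15073 genes lay above 0. *Lypd8l*, a relative of the bacteria-binding protein LYPD8, had 1515, 1929, 1231 and 1478 normalised counts in the control mice and 894, 391, 502 and 842 in the Bmal1 IEC-/- mice and fell with a log2 difference of -1.23 (SE 0.22, edgeR adjusted p = 0.000347). *Pigr*, the receptor that carries antibodies into the lumen, is an abundant transcript, with 11680, 11010, 11090 and 11010 normalised counts in the control mice and 15930, 14170, 17560 and 15970 in the Bmal1 IEC-/- mice. Named here after its values were seen, it passed the adjusted p but not the fold change of 1.5, at 0.50 (SE 0.077, edgeR adjusted p = 3.70e-05). *Reg3b* and *Reg3g*, lectins that kill bacteria, had wide spreads and log2 differences of -1.13 (edgeR adjusted p = 0.759) and -0.75 (edgeR adjusted p = 0.907). Of the phospholipase genes outside the list, *Pla2g2f* had 65.9, 55.3, 59.3 and 36.4 normalised counts in the control mice and 8.56, 5.86, 10.2 and 15.04 in the Bmal1 IEC-/- mice and fell with a log2 difference of -2.45 (SE 0.31, edgeR adjusted p = 4.63e-07). *Thbs4*, a matrix protein, had 97.9, 80.8, 131 and 73.9 normalised counts in the control mice and 26.6, 27.4, 26.9 and 19.1 in the Bmal1 IEC-/- mice and fell with one of -1.94 (SE 0.22, edgeR adjusted p = 2.48e-08).

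*Ffar2*, a receptor for short-chain fatty acids, was the called gene among 13 tested for microbial sensing and immune recruitment (0.663% called over all genes). It had 93.4, 113, 92.4 and 129 normalised counts in the control mice and 176, 172, 164.5 and 156 in the Bmal1 IEC-/- mice. Its log2 difference was 0.65 (SE 0.15, edgeR adjusted p = 0.0113), and its call was lost without control replicates SV398 or SV438 (edgeR adjusted p = 0.0652 and 0.0816). The complement gene *Hc*, the chemokine receptor gene *Cxcr4* and the adhesion gene *Vcam1* overlapped between the genotypes and did not pass, with log2 differences of 0.27 (edgeR adjusted p = 0.983), -0.080 (edgeR adjusted p = 0.999) and -0.087 (edgeR adjusted p = 0.999). *Arg2*, an arginase, had 55.8, 79.8, 82.8 and 73.9 normalised counts in the control mice and 106, 101, 138.5 and 118 in the Bmal1 IEC-/- mice and did not pass, at 0.66 (edgeR adjusted p = 0.0847), and the chemokine gene *Ccl28* was at 0.49 (edgeR adjusted p = 0.172), although neither overlapped between the genotypes. No pyroptosis gene of 14 tested was called by edgeR, with a median of 0.11. The gasdermin genes *Gsdmc4*, *Gsdmc3* and *Gsdmc2*, which are near copies with uncertain counts, were at 1.14 (edgeR adjusted p = 0.0785), 0.99 (edgeR adjusted p = 0.181) and 0.71 (edgeR adjusted p = 0.485).

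Of the genes the study names for these mice, 7 of 25 were called higher and 8 lower at CT17, against 0.239% and 0.425% of all genes tested. That list was chosen on these samples among others and is not independent evidence of direction. Sterol synthesis (21 genes tested, median -0.19), heat shock (12, 0.039), glucocorticoid-responsive (11, -0.044), immediate early (11, 0.077), proliferation (20, 0.071), Wnt and stem cell (13, 0.081), interferon-stimulated (15, -0.24) and MHC class II genes (7, 0.042) had 0 calls and 0 genes past the adjusted p in edgeR. Of the interferon-stimulated genes 13 of 15 lay below 0, whereas 7660 of all 15073 genes lay above 0, and none of the 15 exceeded 0.068 on the log2 scale. In fatty acid oxidation 0 of 18 were called, and among those past the adjusted p were *Plin2* and *Ucp2*, at -0.46 (edgeR adjusted p = 0.00793) and -0.31 (edgeR adjusted p = 0.0357).

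**Figure D4:**
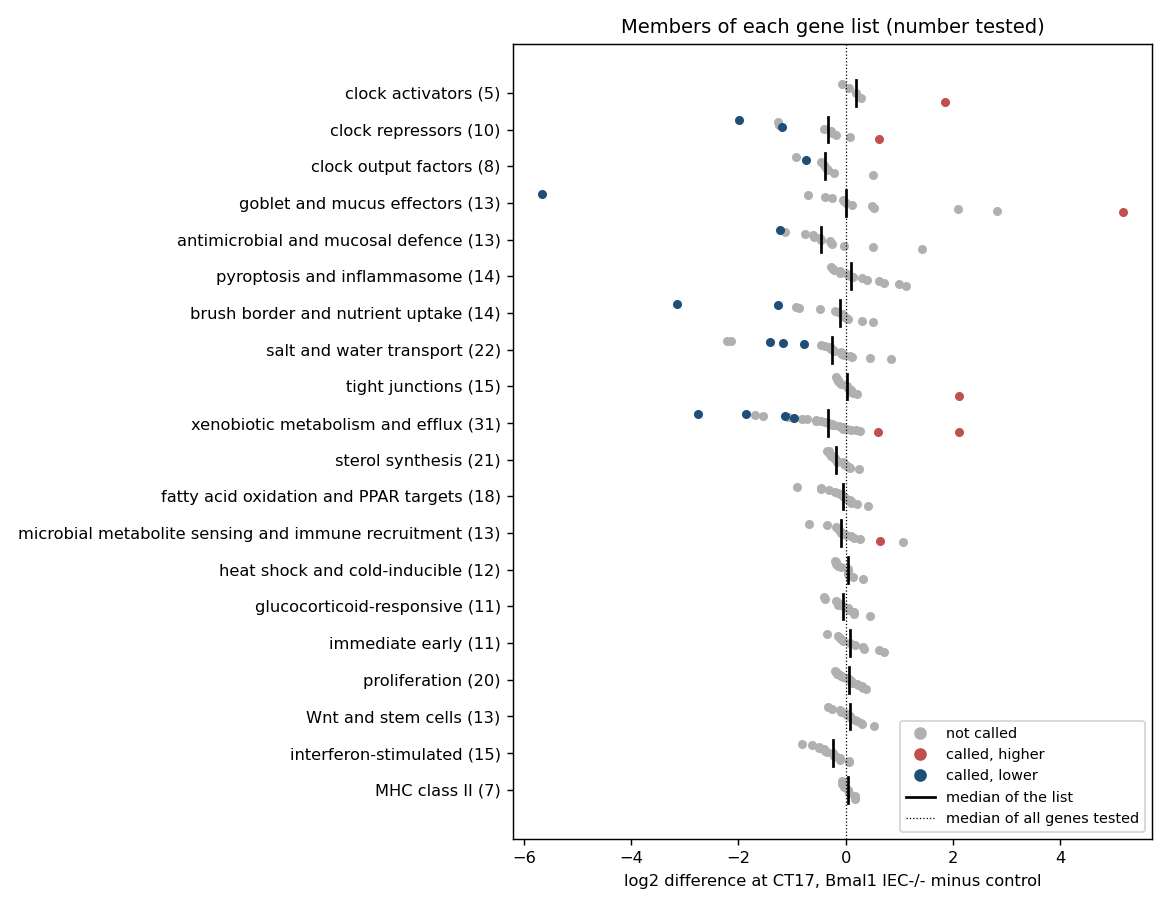
Log2 differences at CT17 of the members of 20 gene lists, with called members in colour, the median of each list as a bar and the median of all genes tested as a dotted line. Called genes lie in the clock, mucus, defence, uptake, transport, tight junction, xenobiotic and microbial sensing lists, and the xenobiotic list has its median at -0.33.

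The genotype difference at CT17 was set beside those at the other times, which share no mice with it, 2 of the 4 Bmal1 IEC-/- mice at CT1 being left out of the fit. Of the 15073 genes, 129 (0.856%) were called at CT1, 49 (0.325%) at CT5, 152 (1.01%) at CT9, 343 (2.28%) at CT13 and 39 (0.259%) at CT21. Of the 100 genes called at CT17, 16 were called in the same direction at CT1, 23 at CT5, 53 at CT9, 69 at CT13 and 30 at CT21. The sign was the same at all 5 other times for 78 of the 100. At all 5, 12 were called in the same direction, among them *Ggh*, *Cldn8*, *Glipr2*, *Cry1*, *Nr1d2*, *Cyp4b1*, *Sis*, *Thbs4* and *Lypd8l*, and 25 were called at none of them. *Nr1d2* had log2 differences from -1.94 to -1.45 at the other times, and *Sis* from -3.14 to -2.45.

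The test of the CT17 difference against the mean difference at the other 5 times called 3 genes (0.0199%). At an unadjusted p under 0.05 there were 516 of 15073 genes, a smaller share than the 0.05 of evenly spread p-values. Few calls in this test do not show that other genes differed equally at all times. *Cry1* and *Car2* were among the 3 called. *Cry1* differed from the other times by -0.96 (SE 0.16, edgeR adjusted p = 0.002) on the log2 scale. Its control mean was 187 ± 19.5 at CT17 and 34.0 ± 10.6 at CT5, while its Bmal1 IEC-/- means were 288 ± 16.4 and 255 ± 29.5 (mean ± SD, n = 4 each). The log2 difference was thus 0.61 at CT17 against 2.91 at CT5, with control values of *Cry1* near their top at CT17.

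*Car2* went the other way, in that its difference was larger at CT17 than elsewhere, by -0.40 (SE 0.079, edgeR adjusted p = 0.0326). Its Bmal1 IEC-/- mean was 2401 ± 97.5 normalised counts at CT17 and 2768 to 3149 at the other times, against 2790 to 3524 over all times in control mice. Without any of 6 of the 8 mice (all but control replicate SV398 and Bmal1 IEC-/- replicate SV416) this call was lost (edgeR adjusted p = 0.0819 to 0.181), as it was with scaling by library totals alone (edgeR adjusted p = 0.0602). *Ces1d* had -0.73 (SE 0.15, edgeR adjusted p = 0.0593) in the same test. It passed in DESeq2 (adjusted p = 0.0044), in limma-voom (adjusted p = 0.0325), with all 48 mice (edgeR adjusted p = 0.048), and without control replicate SV398 or Bmal1 IEC-/- replicate SV437 (edgeR adjusted p = 0.0345 and 0.0286). Also among the smallest p in this test, without passing it, were *Trim9*, *Irs2*, *Adck2*, *Pnpla3*, *Igkv6-20*, *Npas2* and *Pgbd5*, with edgeR adjusted p from 0.126 to 0.671.

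Against CT5, the opposite point of the cycle, 12 genes (0.0796%) differed. At an unadjusted p under 0.05 there were 598 of 15073 genes, again a smaller share than the 0.05 of evenly spread p-values. The clock genes *Cry1*, *Per2* and *Nfil3* had log2 differences that were lower at CT17 than at CT5 by -2.29 (SE 0.23, edgeR adjusted p = 4.14e-09), -1.55 (SE 0.29, edgeR adjusted p = 0.00655) and -1.30 (SE 0.25, edgeR adjusted p = 0.0146). *Per2* overlapped between the genotypes at CT17 and was higher in Bmal1 IEC-/- mice at CT5, where its log2 difference was 1.38. In *Ces1d*, *Cyp4b1* and *Abcb1a* the decline was deeper at CT17 than at CT5, by -1.51 (SE 0.19, edgeR adjusted p = 4.13e-06), -1.59 (SE 0.32, edgeR adjusted p = 0.0176) and -0.77 (SE 0.16, edgeR adjusted p = 0.0339). *Ces1d* had a control mean of 1591 ± 177 at CT17 and 792 ± 113 at CT5, and Bmal1 IEC-/- means of 438 ± 90.5 and 624 ± 50.3.

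Also called were *9030625G05Rik*, *Sord*, *Acaa1b*, *Lingo4* and *Car2*, at 3.47 (SE 0.70, edgeR adjusted p = 0.0184), -0.52 (SE 0.11, edgeR adjusted p = 0.0444), -1.51 (SE 0.31, edgeR adjusted p = 0.0187), -3.06 (SE 0.56, edgeR adjusted p = 0.00655) and -0.55 (SE 0.10, edgeR adjusted p = 0.00655). *Sord* encodes sorbitol dehydrogenase and *Acaa1b* a thiolase of peroxisomes. Without Bmal1 IEC-/- replicate SV416 the number of genes called against CT5 was 7. Among the genes given here, leaving out single mice ended the call against CT5 of *Cyp4b1* (without Bmal1 IEC-/- replicates SV416 or SV481 or control replicate SV438, edgeR adjusted p = 0.0662 to 0.0807), *Nfil3* (without SV416, 0.0548), *Acaa1b* (without SV416, SV437 or SV438, 0.0549 to 0.0944), *9030625G05Rik* (without SV399 or SV453, 0.0776 and 0.0809), *Abcb1a* (without SV399, SV416, SV437, SV438 or SV453, 0.0782 to 0.179) and *Sord* (without any of 6 mice, all but SV398 and SV437, 0.066 to 0.194). With all 48 mice in the fit, *9030625G05Rik*, *Sord*, *Abcb1a* and *Acaa1b* did not pass either (edgeR adjusted p = 0.175, 0.132, 0.0541 and 0.0511), and *9030625G05Rik* did not in limma-voom (adjusted p = 0.129). Scaling by library totals alone ended the call of *Sord* (edgeR adjusted p = 0.125) and *Abcb1a* (edgeR adjusted p = 0.0718), and a filter of at least 10 counts in at least 4 mice that of *Sord* (edgeR adjusted p = 0.0564).

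**Figure D5:**
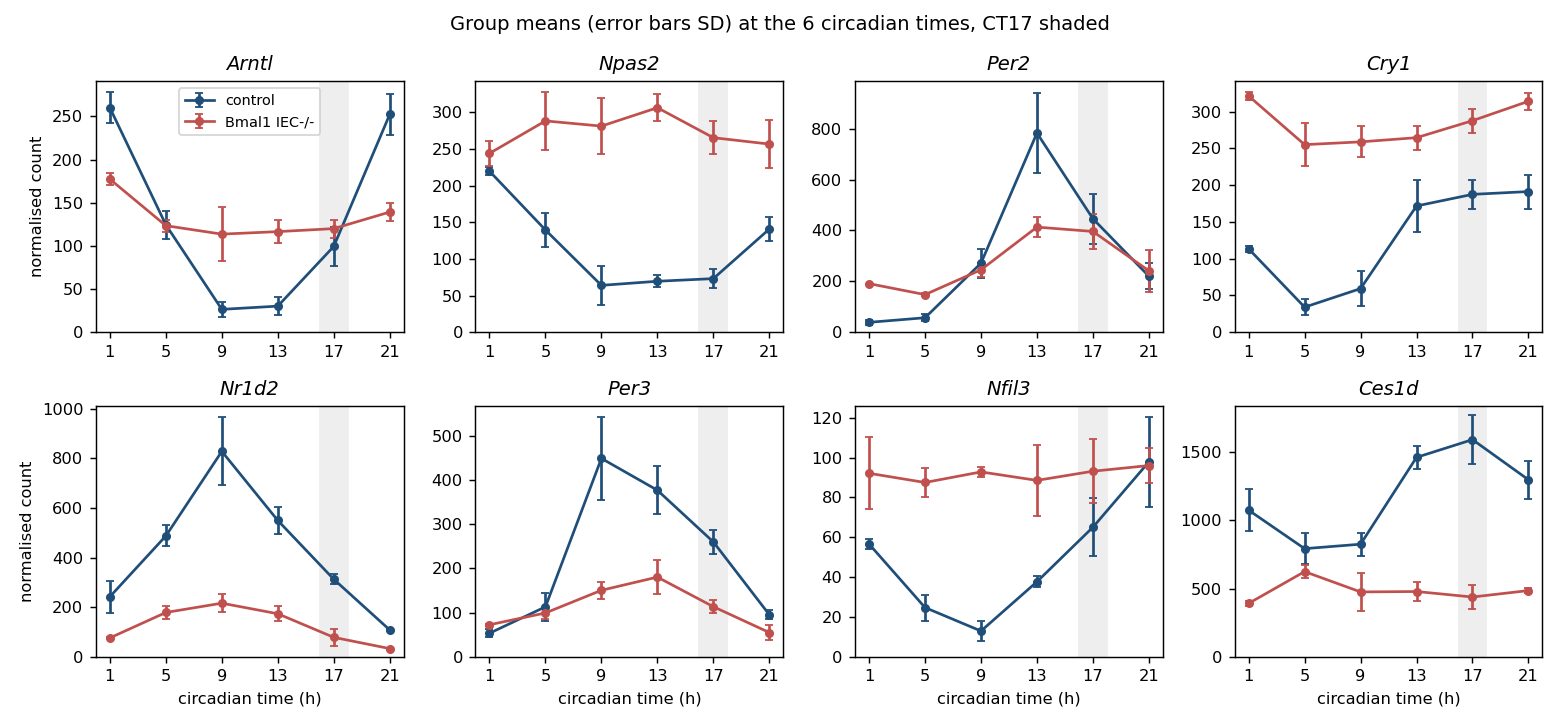
Mean normalised counts (error bars SD; n = 4, or 2 for Bmal1 IEC-/- at CT1) of 8 genes over the 6 circadian times in control and Bmal1 IEC-/- mice, with CT17 shaded. At CT17 *Per2* and *Arntl* come close between the genotypes while *Npas2*, *Nr1d2* and *Ces1d* lie apart.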

How the data were processed

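Per the labels and methods, the authors extracted RNA with NucleoSpin RNA, made TruSeq Stranded mRNA libraries, checked and trimmed reads with FastQC 0.11.5 and Trimmomatic 0.39, aligned them to mm10 with STAR 2.7.5c and counted those of mapping quality 4 or more on exons with featureCounts 1.4.6. The annotation release is not given in the sources used here. The deposited values are the authors' raw counts per gene. Of 55401 genes listed, 55141 were matched to GENCODE vM21 (GRCm38). The 15073 genes kept by filterByExpr were fitted in edgeR 4.0.16 (TMM, quasi-likelihood test, Benjamini-Hochberg adjustment, R 4.3.3) with a mean for each of 12 groups over 46 mice, leaving out SV384 and SV385 (Bmal1 IEC-/-, CT1), which the study's normalised values leave out. Normalised counts are counts over DESeq2 1.42.0 size factors. A count of 0 allows up to 3 counts at this depth. The steps were tested on simulated data, and alternatives included DESeq2 and limma 3.58.1 voom, other normalizations, filters and mice.

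Genes named were the clock lists and the 10 smallest adjusted p and 5 largest fold changes in each direction (higher mean at least 20). To these were added up to 4 called genes per list, 25 genes that the study names, and 8 in each direction of the test against other times. Some items are not reported here by name but are included in counts. Another 15 were named after their values were seen. The members and lists were chosen with earlier results of these data known.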

Additional observations from a re-analysis of the deposited data

Results flagged for a closer look

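In 170 groups of 4 mice (85 named genes, each genotype), 19 held a mouse far from the other 3, by Dixon's ratio at its 95% critical value. For independent groups of normally distributed values chance gives about 1 in 20. The 19 cannot be set against that rate, since the groups come from the same 8 mice. Some genes were also named for large differences that a single mouse made, such as *Ighv14-4* and *Igkv8-21*. Bmal1 IEC-/- replicate SV481 held 8 of the 19 values. It was high in the immunoglobulin segments *Ighv14-4* (779 normalised counts, the other 3 at 0 to 1.86) and *Igkv8-21* (1491, the others at 1.95 to 4.76), and also in *Agbl2* (57.2), *Smim24* (415), *Abcb1a* (2743), *Pnpla3* (44.1) and *Tff2*, and it was low in *Thbs4* (19.1). The value of *Tff2* (1.003) came from 1 count, below the floor of 3 counts, with the others at 0, where the ratio is at its highest by construction, so it shows nothing of that mouse although it is in these counts. Replicate SV416 was high in the defence genes *Retnlb* (646, the others at 23.2 to 65.2) and *Ang4* (620.5, the others at 37.1 to 85.2). Replicate SV437 was high in *Hlf* (74.3) and low in *Slc2a5* (6.50), and replicate SV399 was low in *Ces1g* (469). Among control mice, SV417 was high in *Ang4* (80.8) and *Igkv6-20* (8.51), SV398 in *Nr1d2* (341) and *Pigr* (11680), while SV453 was low in *Per1* (86.1) and SV438 in *Cldn8* (129).

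The genotype difference at CT17 was unlike the mean of the other 5 times in *Cry1* and *Car2*, by -0.96 and -0.40 on the log2 scale. Against CT5 it was lower in *Lingo4* (-3.06), *Cry1* (-2.29), *Cyp4b1* (-1.59), *Per2* (-1.55), *Acaa1b* (-1.51), *Ces1d* (-1.51), *Nfil3* (-1.30), *Abcb1a* (-0.77), *Car2* (-0.55) and *Sord* (-0.52), and higher in *9030625G05Rik* (3.47). These differences passed edgeR's test of the difference itself.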

How the results depend on the processing

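No paired analysis was run because the labels' mouse numbers are not shared between groups and name no pairs. Some numbers are adjacent between the genotypes, such as SV398 and SV399, and whether such mice form pairs was not tested. The number of genes called at CT17 (100) was 246 with no filter beyond 1 count in any mouse (92 shared, 6 not tested otherwise) and 26 when tested against a fold change of 1.5 itself, and 75 to 105 with single mice left out. With the other settings tried it was 72 to 114. Without a filter the test against the other times called 133 genes and that against CT5 158, and with single mice left out they called 2 to 4 and 7 to 17 (7 without SV416). The cause was not tested. With single mice left out, the log2 difference ran from -0.76 (without SV481) to 7.44 in *Ighv14-4* and from -0.90 (without SV481) to 6.57 in *Igkv8-21*. The direction also turned in genes that did not pass. These were *Clock* (-0.081 to 0.17, below 0 without SV438 or SV481, the latter -0.018), *Cry2* (-0.027 without SV437 to 0.13), *Bhlhe41* (-0.81 to 0.048 without SV481), *Noct* (-0.32 to 0.0080 without SV398), *Cxcr4* (-0.30 to 0.054, above 0 without SV398, SV399 or SV481, at 0.026, 0.015 and 0.054) and *Vcam1* (-0.19 to 0.041, above 0 without SV417 or SV481, at 0.041 and 0.025). Depth was 3565094 to 4439845 counts per mouse.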

Other observations

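Several genes that no list above holds, or that were not described there, were named after their values were seen. *Rdh10*, which oxidises retinol, had 158, 179, 186 and 194 normalised counts in the control mice and 118, 112, 108 and 107 in the Bmal1 IEC-/- mice, with a log2 difference of -0.69 (SE 0.094, edgeR adjusted p = 3.54e-06). *Rbp2*, a retinol-binding protein of enterocytes, had 31.1, 54.2, 63.7 and 62.9 normalised counts in the control mice and 27.6, 24.4, 29.7 and 37.1 in the Bmal1 IEC-/- mice. Its groups overlapped, with a log2 difference of -0.83 (SE 0.19, edgeR adjusted p = 0.014). That call was lost without SV399, SV416, SV438 or SV453 (edgeR adjusted p = 0.0581 to 0.118) and with the 8 CT17 mice fitted alone (edgeR adjusted p = 0.199). *Aldh1a1*, described above, acts after *Rdh10* on the known route to retinoic acid.

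*Slc10a2*, the apical bile acid transporter, had 947, 1124, 1207 and 971 normalised counts in the control mice and 465, 639, 466.5 and 575.5 in the Bmal1 IEC-/- mice, with a log2 difference of -0.99 (SE 0.17, edgeR adjusted p = 0.000305). *Slc3a1*, a subunit of the carrier of cystine and dibasic amino acids, had 114, 189, 208 and 239 normalised counts in the control mice and 39.96, 103, 61.3 and 88.2 in the Bmal1 IEC-/- mice, with one of -1.36 (SE 0.21, edgeR adjusted p = 5.98e-05). *Slc9a3r1*, a scaffold of apical membrane transporters, had a log2 difference of -0.64 (SE 0.11, edgeR adjusted p = 0.000284). The flavin monooxygenase gene *Fmo5* and the epoxide hydrolase gene *Ephx2* had log2 differences of -0.91 (SE 0.16, edgeR adjusted p = 0.000256) and -0.88 (SE 0.13, edgeR adjusted p = 7.31e-06). In the other direction, the interleukin-1 receptor gene *Il1r1* had 135.5, 164, 144 and 124 normalised counts in the control mice and 229, 227, 238 and 251 in the Bmal1 IEC-/- mice and a log2 difference of 0.73 (SE 0.13, edgeR adjusted p = 0.000309). Of these 8 genes, all of them called, only *Rbp2* overlapped between the genotypes. That follows from how they were picked, since the groups did not overlap for 92 of the 100 genes called. Over all genes tested the share was 4.73%.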
